A study of Mus musculus with 30 samples.

Results

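The genes Pdk1, Pdk2, Pdk3 and Pdk4, which encode the pyruvate dehydrogenase kinases, were followed over 30 bead arrays of mouse nucleus accumbens. All probes annotated to the 4 genes were taken, which gave 5 of the 46174 probes on the array. Pdk4 had 2 probes and the other genes 1 each. All 4 genes were among the 13226 genes tested. The RNA was that of C57BL/6J mice, taken 4 h after they were given 4 mg/kg of dexamethasone, a synthetic glucocorticoid, or saline. RNA came from astrocytes after dexamethasone, astrocytes after saline, neurons after dexamethasone, neurons after saline, accumbens tissue after dexamethasone and accumbens tissue after saline, with 5 arrays in each of the 6 groups. The astrocytes and neurons had been sorted magnetically, and the labels give 1 mouse per array; they do not tie a sorted sample to a tissue sample. The mice carried no labelled transgene or mutation.

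Pyruvate dehydrogenase kinases are mitochondrial enzymes that phosphorylate the E1 alpha subunit of the pyruvate dehydrogenase complex and switch the complex off, so that less pyruvate enters the tricarboxylic acid cycle as acetyl-CoA. Pyruvate dehydrogenase phosphatases remove the phosphate and switch it on again. Pdk4 is the isoform known for induction by fasting, fatty acids and glucocorticoids, mostly from work in muscle, heart and liver; Pdk1 is a target of hypoxia-inducible factor, Pdk2 is the broadly expressed isoform, and Pdk3 is known from brain and testis.

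Levels are log2 of background-corrected and quantile-normalized intensity, and the levels of different probes were not set against each other. A probe counted as detected on an array where fewer than 5% of 1552 probes for sensory receptors, used as stand-ins for negative controls, were as bright. Pdk1 (chr2:71873215-71903858, GRCm38.p6) and Pdk3 (chrX:93764616-93832150) were detected on 30 arrays. Pdk2 (chr11:95026258-95041371) was detected on 29 and missed on replicate 2 of tissue after dexamethasone. Pdk4 (chr6:5483351-5496278) was detected on 21 arrays with the probe made from its RefSeq transcript, which stands for the gene below. The other Pdk4 probe, made from a cDNA clone and matched through the platform annotation alone, was detected on 0 of 30 arrays, with group means between 5.41 and 5.69, and was not tested.

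The percentage of probes detected per array lay between 36.2 and 50.1, with both ends in tissue after dexamethasone. Arrays of the same group correlated at 0.900 to 0.985; replicate 5 of tissue after dexamethasone had the lowest mean correlation with its group, 0.909. The mean level of 11 astrocyte markers was 13.62 in astrocytes, 8.73 in neurons and 11.12 in tissue under saline, and that of 9 medium spiny neuron markers was 8.58 in astrocytes, 12.80 in neurons and 11.85 in tissue. The astrocyte preparation also held microglia markers at a mean of 9.04 and oligodendrocyte markers at 13.72, against 9.60 and 14.22 in tissue (saline arrays). The neuron preparation held oligodendrocyte markers at 12.73 and blood markers at 13.54. Mural cell markers were at 8.48 in astrocytes, 6.36 in neurons and 7.49 in tissue under saline. Endothelial markers were at 10.36 in astrocytes, 10.49 in neurons and 9.45 in tissue. In all of these bulk samples, fewer cells of a type and less RNA per cell cannot be told apart. The part of other cells in the results below was not tested.

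The promoters of Pdk4, the member with the largest difference after dexamethasone in tissue, and of the second of 2 RefSeq starts of Pdk1, the only member window with a glucocorticoid receptor element searched for here, are shown first. Each window is 300 bases around a transcription start in RefSeq on GRCm38.p6, and all 4 genes were matched. The Pdk4 window is chr6:5496229-5496528 on the minus strand and the Pdk1 window chr2:71874654-71874953 on the plus strand. Capitals mark TGTTCT, the reverse complement of AGAACA.
Pdk4: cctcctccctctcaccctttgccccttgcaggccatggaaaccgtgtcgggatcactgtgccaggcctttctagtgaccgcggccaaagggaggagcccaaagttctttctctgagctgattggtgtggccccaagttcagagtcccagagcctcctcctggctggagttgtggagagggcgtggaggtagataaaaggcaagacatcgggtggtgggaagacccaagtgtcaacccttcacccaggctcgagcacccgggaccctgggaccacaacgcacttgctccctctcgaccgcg
Pdk1, the second start: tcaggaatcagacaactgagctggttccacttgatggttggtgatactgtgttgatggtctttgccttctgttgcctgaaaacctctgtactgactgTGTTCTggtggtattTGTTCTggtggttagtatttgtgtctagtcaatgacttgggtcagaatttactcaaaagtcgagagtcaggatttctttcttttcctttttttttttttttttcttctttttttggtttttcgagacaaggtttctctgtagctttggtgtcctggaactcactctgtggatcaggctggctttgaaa
On both strands, 5 motifs were searched: AGAACA, bound by a single glucocorticoid receptor subunit, its paired form, GNACA followed after 3 bases by TGTNC, which can overlap the single element, then GTAAACA for FoxO factors, ACGTG for hypoxia-inducible factor and AAGGTCA for estrogen-related receptors. The Pdk4 window held 0 of the 5. The Pdk1 window held AGAACA at 2 places on its minus strand, with leftmost bases at -153 and -138 from the start; 19% of 32851 promoters of this length hold this motif. ACGTG, found in 19.6% of promoters, was read on both strands of the palindrome CACGTG at the second start of Pdk2 and once at Pdk3. The paired form is in 0.475% of the promoters, GTAAACA in 3.65% and AAGGTCA in 4.72%. A match or its lack describes these windows only.

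The levels of the kinases differed between the preparations, and in opposite directions. Pdk4 and Pdk2 were higher in astrocytes than in neurons and tissue, and Pdk3 was lower in astrocytes than in both. Under saline, 2 members were higher and 1 lower in astrocytes than in neurons after adjustment, where 58.2% of all genes tested were called (26.9% higher, 31.2% lower). Against tissue, the count was again 2 higher and 1 lower, where 51.8% of all genes were called (24.2% higher, 27.6% lower). Between neurons and tissue 2 members were lower and 0 higher, where 26.9% were called (11.1% higher, 15.9% lower). Differences between preparations are thus common on these arrays, and the members' counts are read against that.

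**Figure D1:**
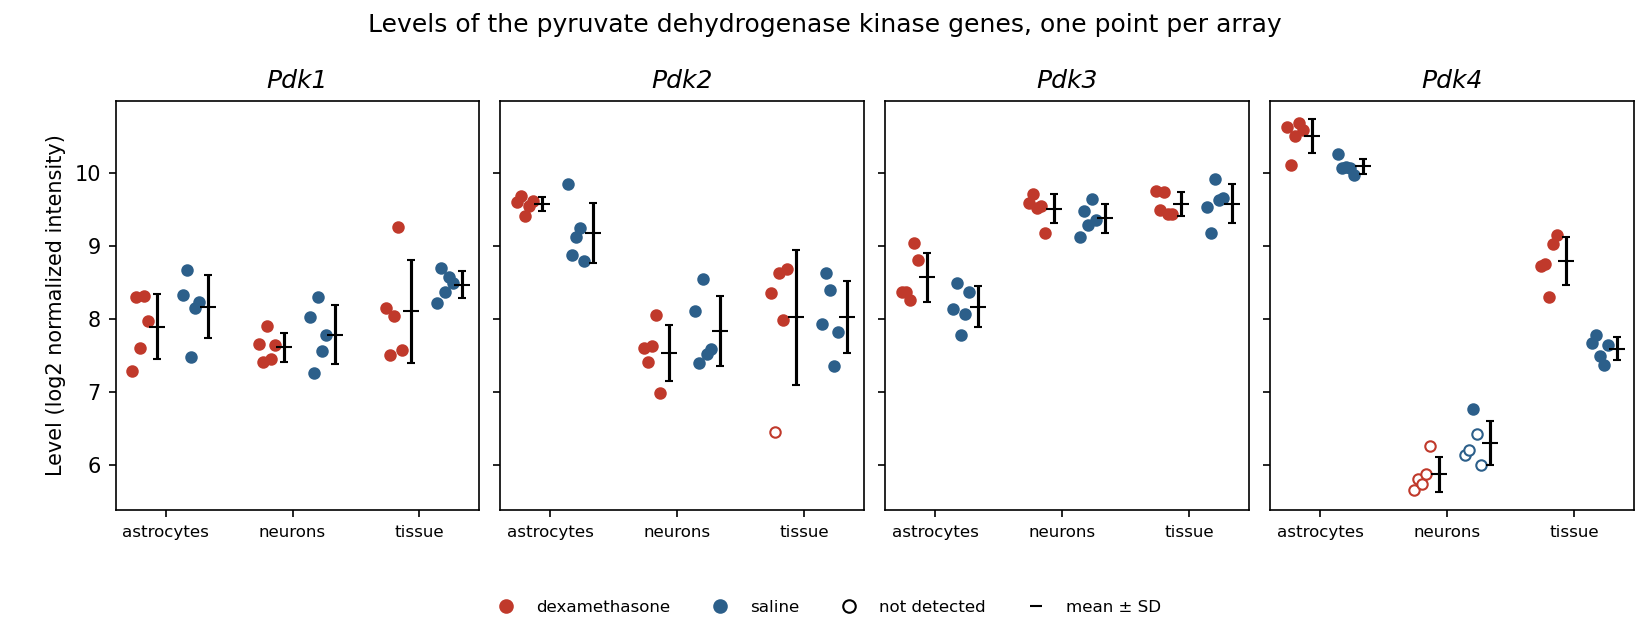
Level of each kinase gene on every array (y axis, log2 normalized intensity; x axis, preparation, with dexamethasone in red and saline in blue). Open points mark arrays on which the probe was not detected, and black bars the mean ± SD of 5 arrays. Pdk4 spans group means from 5.86 in neurons after dexamethasone to 10.5 in astrocytes after dexamethasone, and its tissue arrays after dexamethasone lie above those after saline.

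Pdk4 had the widest range of the 4 genes. In astrocytes its level was 10.63, 10.11, 10.50, 10.68 and 10.58 after dexamethasone, against 10.26, 10.06, 10.07, 10.06 and 9.97 after saline. In neurons it was 5.65, 5.80, 5.74, 5.87 and 6.26 after dexamethasone, none of them detected, against 6.13, 6.20, 6.76, 6.42 and 5.99 after saline, of which only the 6.76 was detected. In tissue it was 8.72, 8.75, 8.30, 9.02 and 9.14 after dexamethasone, against 7.66, 7.77, 7.49, 7.37 and 7.64 after saline. Astrocytes lay above tissue and tissue above neurons under each agent, without overlap between preparations. How many of all genes tested separate in this way was not counted, here or for Pdk2 and Pdk3 below. The lack of overlap is therefore not read as a trait of the kinases.

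Under saline, Pdk4 averaged 10.08 ± 0.10 in astrocytes and 6.3 ± 0.30 in neurons (SD, n = 5 each), and astrocytes passed the test (adjusted p = 6.75e-12 in limma). Since neurons lay at background on 4 of 5 arrays, the difference is given as a bound: at least 10.5-fold. Against tissue, at 7.59 ± 0.16, astrocytes were 5.65-fold higher (2.50 ± 0.14, adjusted p = 1.24e-09), and tissue was at least 1.85-fold above neurons (adjusted p = 5e-06). The dexamethasone arrays, from separate mice, gave at least a 13.7-fold higher level in astrocytes than in neurons and a 3.28-fold higher level in astrocytes than in tissue (1.72 ± 0.18, adjusted p = 7.59e-07). Tissue after dexamethasone was at least 4.16-fold above neurons. These bounds set the brighter mean against the higher of the neuronal level and the lowest detected level on each array. The saline and dexamethasone arrays were normalized together.

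Pdk2, the broadly expressed isoform, was also an astrocyte-high gene. It read 9.60, 9.68, 9.41, 9.54 and 9.61 in astrocytes after dexamethasone and 9.84, 8.87, 9.12, 9.24 and 8.79 in astrocytes after saline. In neurons it read 7.59, 7.41, 7.62, 8.05 and 6.98 after dexamethasone and 8.10, 7.39, 8.54, 7.52 and 7.58 after saline. In tissue it read 8.35, 6.44, 8.63, 7.98 and 8.68 after dexamethasone and 7.93, 8.62, 8.39, 7.35 and 7.82 after saline. All 10 astrocyte arrays lay above all neuron and tissue arrays, and neurons and tissue overlapped. Under saline, astrocytes were 2.54-fold above neurons (1.35 ± 0.27, adjusted p = 0.000444 in limma, n = 5 arrays each) and 2.22-fold above tissue (1.15 ± 0.27, adjusted p = 0.00198). After dexamethasone these differences were 2.04 ± 0.34 (adjusted p = 6.86e-05) and 1.55 ± 0.34 (adjusted p = 0.00108), with 53.1% and 46.1% of all genes called in the 2 comparisons. Neurons and tissue differed by -0.20 ± 0.27 under saline (adjusted p = 0.646) and by -0.48 ± 0.34 after dexamethasone (adjusted p = 0.325). Without replicate 2 of tissue after dexamethasone, where Pdk2 was not detected, the last difference was -0.88 (adjusted p = 0.00601).

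Pdk3, the isoform known from brain, ran the other way. It read 8.36, 8.37, 8.26, 9.03 and 8.8 in astrocytes after dexamethasone and 8.13, 8.49, 7.77, 8.06 and 8.37 in astrocytes after saline. In neurons it read 9.58, 9.70, 9.52, 9.54 and 9.17 after dexamethasone and 9.12, 9.48, 9.28, 9.64 and 9.35 after saline. In tissue it read 9.75, 9.49, 9.73, 9.43 and 9.43 after dexamethasone and 9.53, 9.17, 9.91, 9.62 and 9.65 after saline. All 10 astrocyte arrays lay below all neuron and tissue arrays. Under saline, Pdk3 was lower in astrocytes than in neurons by -1.21 ± 0.16 on the log2 scale (adjusted p = 8.03e-06 in limma, n = 5 arrays each) and than in tissue by -1.41 ± 0.16 (adjusted p = 1.92e-06). After dexamethasone the differences were -0.94 ± 0.17 (adjusted p = 0.000167) and -1 ± 0.17 (adjusted p = 0.000121). Neurons and tissue differed by -0.20 ± 0.16 under saline and by -0.06 ± 0.17 after dexamethasone, neither of which passed the test (adjusted p = 0.400 and 0.827).

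Pdk1, the hypoxia-inducible isoform, varied least between preparations. It read 7.28, 8.29, 7.59, 8.31 and 7.97 in astrocytes after dexamethasone and 8.32, 8.66, 7.48, 8.14 and 8.22 in astrocytes after saline. In neurons it read 7.65, 7.4, 7.90, 7.45 and 7.64 after dexamethasone and 8.02, 7.25, 8.29, 7.55 and 7.78 after saline. In tissue it read 8.14, 7.50, 8.03, 9.25 and 7.57 after dexamethasone and 8.21, 8.69, 8.36, 8.57 and 8.49 after saline. All 3 preparations overlapped under each agent. The only call was a lower level in neurons than in tissue under saline, by -0.69 ± 0.21 (adjusted p = 0.0261 in limma), which the dexamethasone arrays did not give (-0.49 ± 0.29, adjusted p = 0.243, with 24.2% of genes called). That call was lost with the chip as a block (adjusted p = 0.0547) and on leaving out neuron replicate 2 or 4 or tissue replicate 2, 4 or 5, with adjusted p up to 0.0734. Astrocytes and neurons under saline differed by 0.39 ± 0.21 (adjusted p = 0.137), a difference that passed the test without astrocyte replicate 3 (0.56, adjusted p = 0.0215).

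The phosphatases that oppose the kinases were compared in the same way. Of 7 tested genes for the pyruvate dehydrogenase complex and its phosphatases, 3 were higher and 1 lower in astrocytes than in neurons under saline, where 26.9% of all genes tested were higher and 31.2% lower; the median log2 difference was 0.38 against -0.08 for all genes. A share of called genes this near that of all genes is no result about the list. Pdp2, a phosphatase catalytic subunit, was higher by 1.53 ± 0.13 (adjusted p = 4.35e-08), and Pdp1, the other catalytic subunit, was lower by -2.72 ± 0.29 (adjusted p = 5.13e-07). Pdha1, the E1 alpha subunit on which the kinases act, was 0.66 ± 0.11 higher (adjusted p = 7.82e-05) and Pdpr, the phosphatase regulatory subunit, 0.66 ± 0.16 higher (adjusted p = 0.00168). After dexamethasone Pdp2 and Pdp1 differed by 1.61 ± 0.18 and -2.80 ± 0.23 between astrocytes and neurons (adjusted p = 9.53e-07 and 2.93e-08). Against tissue, astrocytes under saline had higher Pdp2 (1.31 ± 0.13) and lower Pdp1 (-2.65 ± 0.29) and Dlat (-0.80 ± 0.14), which encodes the E2 subunit (adjusted p = 4.6e-07, 1.06e-06 and 0.000159).

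**Figure D2:**
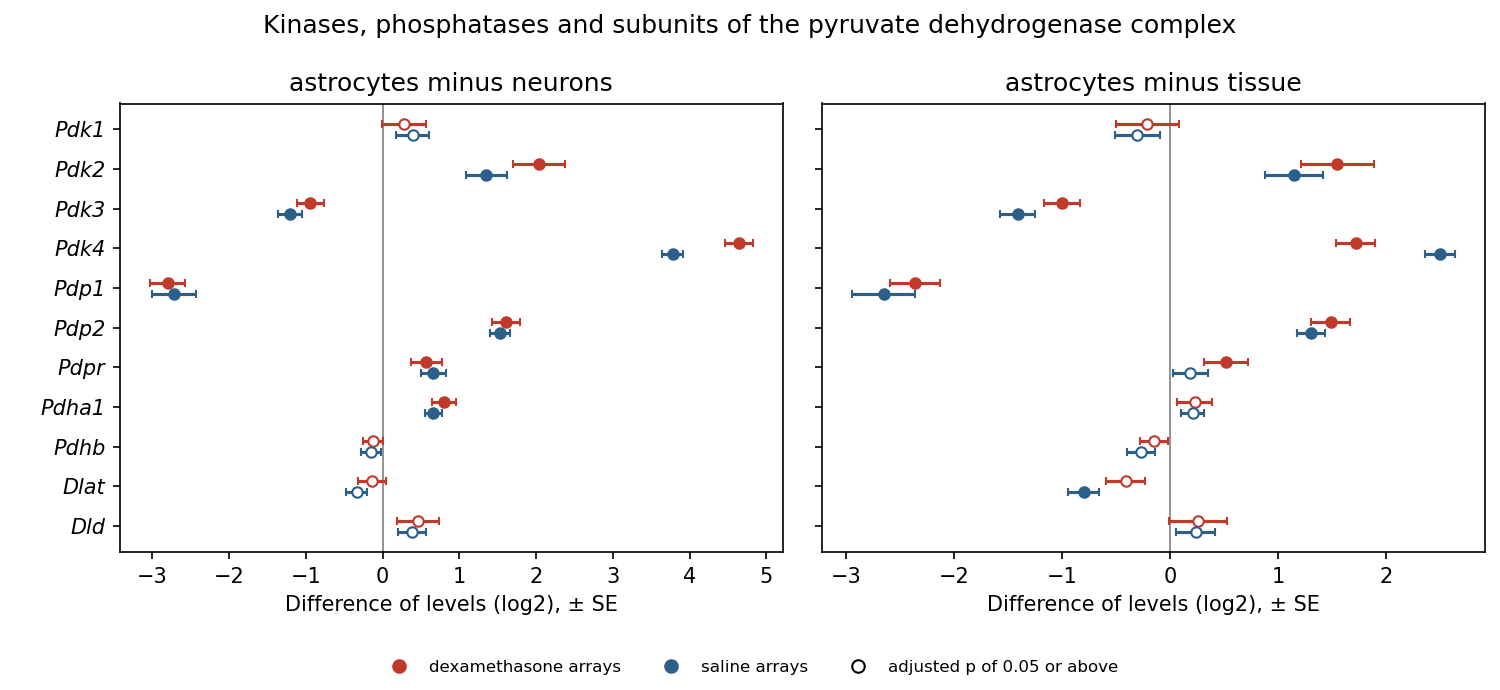
Difference in log2 level (x axis, ± SE of the fit) between astrocytes and neurons at left and between astrocytes and tissue at right, for the kinases, the phosphatases and the tested subunits of the complex, with dexamethasone arrays in red and saline arrays in blue. Filled points passed an adjusted p of 0.05. Pdk4, Pdk2 and Pdp2 lie right of 0 and Pdk3 and Pdp1 left of it in all 4 comparisons; the neuronal Pdk4 level is at background on 9 of 10 arrays, so the size of its differences from neurons is not measured.

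Other mitochondrial fuel genes were set beside the kinases, again where 26.9% of all genes tested were higher and 31.2% lower in astrocytes. Of 18 tested genes of fatty acid oxidation and PPAR targets, 15 were higher and 3 lower in astrocytes than in neurons under saline (median 2.18), among them Eci1, an enoyl-CoA isomerase (3.50 ± 0.15), Acaa2, a thiolase (3.83 ± 0.21), and Hadhb of the trifunctional protein (2.50 ± 0.13). The 3 lower genes, named after their values were seen, were Fabp3 (-1.74 ± 0.29), Cpt1c (-1.51 ± 0.18) and Acot2 (-0.78 ± 0.26), the last of which was 0.20 and not called on the mean of its probes. Of 14 tricarboxylic acid cycle genes, 8 were higher and 2 lower (median 0.33), led by Suclg2, the GTP-forming succinate-CoA ligase subunit (4.95 ± 0.22), and Cs, citrate synthase (1.28 ± 0.12). For the branched-chain ketoacid dehydrogenase, whose kinase is related to the pyruvate dehydrogenase kinases, 4 of 5 genes were higher (median 0.85), among them Dbt (2.09 ± 0.17) and Bckdha (1.69 ± 0.12). Of 9 genes of pyruvate and lactate handling, 4 were higher and 3 lower; Gpt, an alanine aminotransferase (3.64 ± 0.26), and Me1, cytosolic malic enzyme (2.98 ± 0.21), were higher and Me2, mitochondrial malic enzyme (-1.87 ± 0.21), was lower. Of 14 tested known regulators of Pdk genes, 4 were higher and 2 lower: Cebpb (2.00 ± 0.18) and the coactivator Ppargc1a (1.35 ± 0.21) were higher, and Ppargc1b (-2.83 ± 0.29) and the orphan receptor Esrrg (-1.64 ± 0.24) lower. All adjusted p in this paragraph that belong to a called gene lay at or below 0.0153. The probe for Nr3c1, the glucocorticoid receptor, was detected on 1 of 30 arrays and was not tested.

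The response to dexamethasone, the subject of the series, was then read in 1 preparation at a time. In tissue, Pdk4 averaged 8.78 ± 0.33 after dexamethasone and 7.59 ± 0.16 after saline (SD, n = 5 each), a log2 difference of 1.20 ± 0.18 (SE, 95% interval 0.81 to 1.59) or 2.30-fold. All 5 tissue arrays after dexamethasone lay above all 5 after saline, and the chip-wise differences were 1.06, 0.98, 0.81, 1.64 and 1.49. With an adjusted p of 0.0515 over 13226 genes in limma, the gene missed the threshold, at rank 6 by p and rank 15 by size. Only 5 genes, 0.0378% of those tested, were called in tissue, and 0 of the 4 members. For Pdk4 alone, the exact permutation test gave p = 0.00794 (two-sided, unadjusted), the smallest that 252 splits of the 10 arrays allow. Groups without overlap always give this p, so it restates the separation above and is no further support. How many of all genes tested separate in this way in tissue was not counted.

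The position of Pdk4 relative to the threshold depended on the fit. With the spread estimated from all 30 arrays the adjusted p was 0.000139, and with the chip as a block it was 0.243. It passed the threshold without replicate 3 (0.0494) or replicate 5 (0.0408) of tissue after dexamethasone, and the difference stayed between 1.11 and 1.32 whichever array was left out. Without background correction the difference was 0.72 (adjusted p = 0.0693). In tissue, the 11 astrocyte markers had a mean level of 11.16 after dexamethasone (arrays 11.09 to 11.34) and 11.12 after saline (10.96 to 11.27), with 7 of 11 in the positive direction, a median difference of 0.07 and 0 called. The 4 choroid plexus markers were at 9.73 after dexamethasone and 9.13 after saline, 4 of 4 in the positive direction and 0 called. The 8 microglia markers were at 9.37 after dexamethasone (arrays 9.04 to 9.90) and 9.60 after saline (9.45 to 9.73). Of these, 3 of 8 lay in the positive direction and 0 were called. Cx3cr1 was at -1.08 (adjusted p = 0.288 in limma) and P2ry12 at -1.33 (adjusted p = 0.602). C1qa, at 0.62, and C1qb, at 0.69, went the other way. The 7 endothelial markers were at 9.27 after dexamethasone and 9.45 after saline, 1 of 7 in the positive direction and 0 called, with Tek at -0.89 (adjusted p = 0.652). The single markers named in this and the astrocyte comparison were chosen after their values were seen. The part of any of these cells in the Pdk4 difference was not tested.

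**Figure D3:**
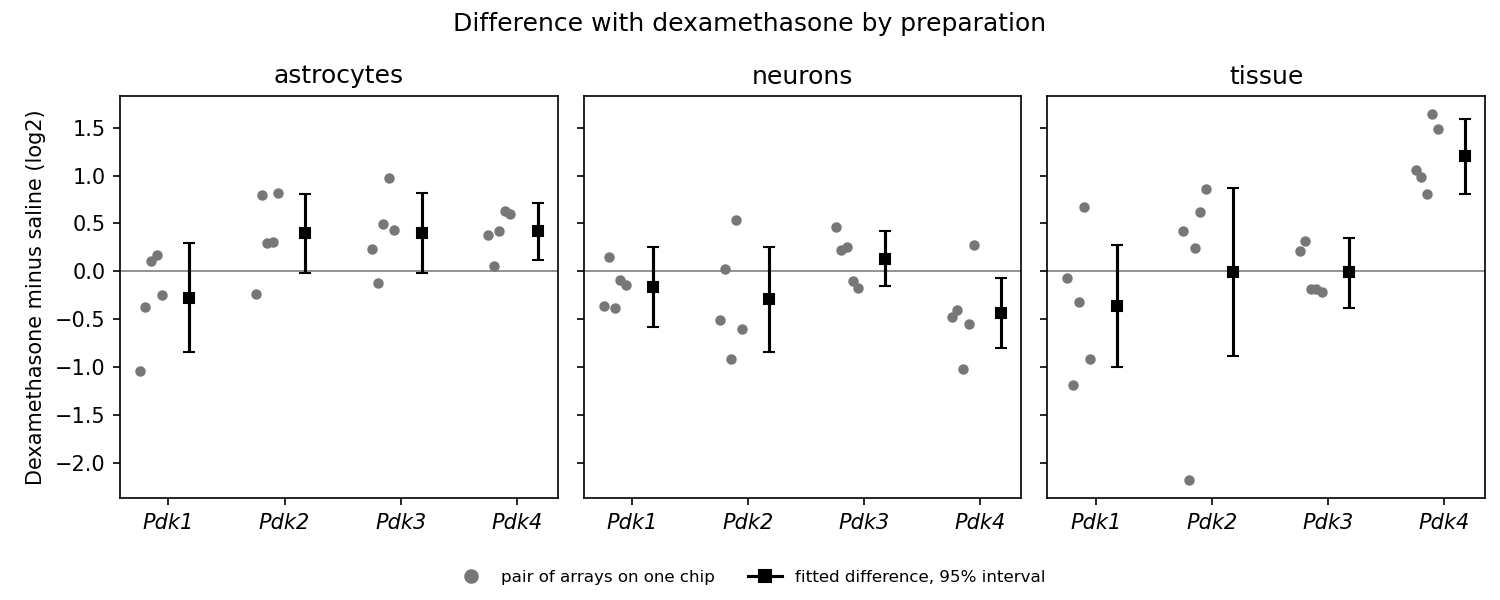
Log2 difference of dexamethasone minus saline (y axis) for each kinase in astrocytes, neurons and tissue. Grey points are the 5 pairs of arrays that shared a chip, and black squares the fitted difference with its 95% interval. In tissue the 5 Pdk4 pairs lie between 0.81 and 1.64, and the Pdk2 pair at -2.18 holds the array on which Pdk2 was not detected; the neuronal Pdk4 values are at background.

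In astrocytes, where Pdk4 was already high, it averaged 10.50 ± 0.23 after dexamethasone and 10.08 ± 0.10 after saline (SD, n = 5 each). The log2 difference was 0.42 ± 0.14 (1.33-fold, 95% interval 0.12 to 0.71), and its adjusted p was 0.225 in limma, so it was not called. The 5 chips gave 0.38, 0.05, 0.42, 0.63 and 0.60, all above 0, and the groups overlapped at 1 array of each. Of all genes 1.76% were called in astrocytes, and 0 of the 4 members. The exact permutation test of Pdk4 alone gave p = 0.0159 (two-sided, unadjusted). Among markers of other cells in the astrocyte samples, the 7 neuron markers averaged 8.50 after dexamethasone and 8.92 after saline, 1 of 7 in the positive direction, and the noncoding RNA Snhg11 was called at -1.27 (adjusted p = 0.032). The 6 mural cell markers averaged 8.76 after dexamethasone and 8.48 after saline, 4 of 6 in the positive direction, and Abcc9, a potassium channel subunit, was called at 1.02 (adjusted p = 0.0478). With the chip as a block neither was called (adjusted p = 0.0785 for Snhg11 and 0.0708 for Abcc9). Snhg11 was lost on leaving out dexamethasone replicate 2, 3 or 5 or saline replicate 1, 4 or 5 (adjusted p up to 0.0818), and Abcc9 was kept only without dexamethasone replicate 3 (adjusted p up to 0.12 in the other 9 such fits). The 4 choroid plexus markers averaged 7.87 after dexamethasone and 8.93 after saline, 0 of 4 in the positive direction and 0 called, with Ttr, transthyretin, at -3.16 (adjusted p = 0.37). The part of these cells in the astrocyte results was not tested.

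In neurons, Pdk4 was at background and no fold is given. It averaged 5.86 ± 0.23 after dexamethasone and 6.3 ± 0.30 after saline, with an adjusted p of 0.621 in limma (n = 5 each). In this preparation 0 genes were called, 0% of those tested, with 932 at an unadjusted p under 0.05 and 52 called in the fit to all 30 arrays. The 11 astrocyte markers of the neuron samples averaged 7.67 after dexamethasone (arrays 7.20 to 8.16) and 8.73 after saline (8.12 to 9.36); 0 of 11 differed in the positive direction, their median was -1.13, and 3 were undetected on all arrays after dexamethasone and 1 on all arrays after saline. Oligodendrocyte markers were at 12.22 after dexamethasone and 12.73 after saline. The part of these transcripts in the neuronal Pdk4 values was not tested.

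The differences with dexamethasone were then compared between preparations on all 30 arrays. Pdk4 was at background on 9 of the 10 neuron arrays, so the 2 fitted values that involve neurons are given without being read as a difference in response. Neurons minus tissue gave -1.64 ± 0.22 (adjusted p = 0.000746 in limma, and 0.640 with median scaling at -1.42), where 0.0529% of genes were called, and the tissue difference of 1.20 makes up most of it. Astrocytes minus neurons gave 0.85 ± 0.22 (adjusted p = 0.0691, 0.832% called) and passed in 5 of the 30 fits that left out 1 array. These were the fits without astrocyte dexamethasone replicate 2, without replicate 5 of either neuron group, and without tissue dexamethasone replicate 3 or 5 (0.74 to 0.95 over all 30, adjusted p down to 0.0321). In the neuronal contrast with tissue, 1 of the 11 astrocyte markers was called in the same direction and their median was -1.16. Between astrocytes and tissue, where Pdk4 was detected on every array, the difference was -0.78 ± 0.22 (adjusted p = 0.187, 0.355% of genes called), and -0.36 without background correction. These contrasts share the groups of each preparation and are not independent. On the mean of the 3 preparations, Pdk4 was 0.39 ± 0.09 higher after dexamethasone (adjusted p = 0.0152, 2.15% of genes called, the only member of 4), but not with median scaling (0.36, adjusted p = 0.333); this mean includes the neurons, where Pdk4 was at background.

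Like Pdk4, the other 3 kinases were not called for dexamethasone in any single preparation. Pdk1 differed by -0.28 ± 0.26 in astrocytes, -0.17 ± 0.19 in neurons and -0.36 ± 0.29 in tissue (adjusted p = 0.922, 0.95 and 0.876). Pdk2 differed by 0.40 ± 0.19 in astrocytes, -0.29 ± 0.25 in neurons and -0.01 ± 0.40 in tissue (adjusted p = 0.525, 0.906 and 0.999). Pdk3 differed by 0.40 ± 0.19 in astrocytes, 0.13 ± 0.13 in neurons and -0.01 ± 0.17 in tissue (adjusted p = 0.534, 0.940 and 0.994). The intervals leave room for sizeable differences: in astrocytes they ran from -0.84 to 0.29 for Pdk1, from -0.02 to 0.81 for Pdk2 and from -0.02 to 0.82 for Pdk3. The tissue value of Pdk2 rested on the undetected array; without it the difference was 0.39 and was not called. Pdk2 in astrocytes was higher after dexamethasone on 4 of 5 chips and Pdk3 on 4 of 5, with overlapping groups.

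Genes of pyruvate use and known glucocorticoid receptor targets were counted beside the kinases. These lists were chosen with earlier results of these data known. The counts and medians of the targets, here and in tissue below, are therefore no independent evidence of a response. In astrocytes, where 1.76% of all genes were called, 12 of 17 glucocorticoid receptor targets rose and 0 fell, with a median of 1.32 against -0.01 for all genes, among them Fkbp5, a co-chaperone of the receptor (3.87 ± 0.24), Cdkn1a, a cell cycle inhibitor (3.46 ± 0.23), the kinases Map3k6 (3.14 ± 0.24) and Sgk1 (2.03 ± 0.17), all at adjusted p of 0.000134 or below. Of the genes for pyruvate and lactate handling 1 of 9 rose: Gpt2, the mitochondrial alanine aminotransferase, averaged 12.33 ± 0.08 after dexamethasone and 11.58 ± 0.16 after saline (0.75 ± 0.12, adjusted p = 0.00753; 0.85 and adjusted p = 0.157 with median scaling). Of the known regulators 1 of 14 rose: Lpin1, a phosphatidate phosphatase and transcriptional coactivator, averaged 9.98 ± 0.23 after dexamethasone and 9.19 ± 0.27 after saline (0.79 ± 0.17, adjusted p = 0.0367). The Lpin1 call was kept only on leaving out dexamethasone replicate 5 or saline replicate 1 and lost in the other 8 such fits (adjusted p up to 0.116). The complex and its phosphatases (0 of 7, median 0.06), the branched-chain complex (0 of 5, median -0.09), the tricarboxylic acid cycle (0 of 14, median 0.03), fatty acid oxidation and PPAR targets (0 of 18, median 0.01) and hypoxia-inducible targets (0 of 11, median 0.06) had no called member. Of the hypoxia-inducible targets, Ndrg1 (0.79), Slc2a1 (0.82) and Kdm3a (0.84) came nearest to the threshold (adjusted p = 0.0596, 0.0842 and 0.0946 in limma). Vegfa, Pgk1, Ankrd37 and Mxi1 lay below 0, from -0.16 to -0.01. Angptl4, a PPAR target that inhibits lipoprotein lipase, averaged 11.15 ± 0.28 after dexamethasone and 10.50 ± 0.11 after saline in astrocytes (0.66 ± 0.15, adjusted p = 0.0557).

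In tissue, where 0.0378% of all genes were called, 3 of 17 glucocorticoid receptor targets rose (median 0.64 against -0.05 for all genes): Plin4, a lipid droplet protein (2.05 ± 0.20, adjusted p = 0.00345), Fkbp5 (1.12 ± 0.14, adjusted p = 0.0202, and 0.199 with the chip as a block) and Arrdc2, an arrestin-domain protein (1.74 ± 0.25, adjusted p = 0.0337). The calls of Fkbp5 and Arrdc2 were kept only on leaving out replicate 5 of either tissue group and lost in the other 8 such fits (adjusted p up to 0.0976 and 0.142). With median scaling 0 genes were called in tissue, so all of these calls, that of Plin4 included, were lost. Cdkn1a differed by 1.83 ± 0.28 with the same adjusted p as Pdk4, 0.0515. Angptl4 averaged 9.47 ± 0.48 after dexamethasone and 8.15 ± 0.35 after saline (1.32 ± 0.25, adjusted p = 0.162). The complex and its phosphatases, the tricarboxylic acid cycle, the branched-chain complex, pyruvate and lactate handling, fatty acid oxidation, the regulators and the hypoxia-inducible targets had 0 called members in tissue, and in neurons 0 members of any of these lists, the glucocorticoid receptor targets included, were called. On the mean of the 3 preparations, Angptl4 (0.99 ± 0.15, adjusted p = 0.00014), Gpt2 (0.40 ± 0.09, adjusted p = 0.0102), the glucose transporter gene Slc2a1 (0.57 ± 0.13, adjusted p = 0.0115) and Cebpb (0.44 ± 0.11, adjusted p = 0.0254) were higher after dexamethasone; with median scaling the last 3 were not called.

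As a description, each kinase was correlated with every other gene tested over the 30 arrays, which share preparations, chips and normalization. The genes most like Pdk4 in level were Fads2, a fatty acid desaturase (Pearson r = 0.98), and Gstm2-ps1, Cyp4f14, Slc15a2, a peptide transporter, and Fgf1, a growth factor (r = 0.97 each). After subtraction of the 6 group means, Lpin2, a phosphatidate phosphatase related to Lpin1, came first for Pdk4 (r = 0.78), followed by Mynn, Son, Slc46a3 and Map2k3 (r = 0.68, 0.67, 0.67 and 0.64). Pdk4 was detected on 0 of 5 neuron arrays after dexamethasone and 1 of 5 after saline, so most of its neuronal deviations lie at background. The r given for each kinase are the highest among 13225 genes compared, and no p was computed. Pdk2 was most like Phlpp1, Trp53bp2, Esyt1, Lhx2 and Rassf2 in level (r = 0.88 to 0.90) and most like Tenm3, Anks1, Pcif1, C430014K11Rik and 3010027A04Rik in deviation (r = 0.70 to 0.78). Pdk3 was most like 5730525O22Rik, B3galnt1, Spock1, Rgs17 and Lin7a in level (r = 0.92 to 0.93) and most like Wdr77, Il24, Tph2, A930014I12Rik and 5730525O22Rik in deviation (r = 0.62 to 0.64). Pdk1 had no gene above r = 0.70 in level, where Sp7, Mrgprf, Sash3, Ntn5 and Cilk1 came first (r = 0.65 to 0.70), and B230216G23Rik, Fin15, Cnp1, 2310022A10Rik and Kif4 came first in deviation (r = 0.68 to 0.73).

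Among the kinases, the levels of Pdk2 and Pdk4 ran together over the 30 arrays (r = 0.78), and Pdk3 ran against Pdk2 and Pdk4 (r = -0.71 each). Pdk1 was weakly related to the others (r = 0.02 to 0.24). Once the group means were subtracted, all 6 pairs lay between -0.21 and 0.24, so that the relations in level were those between the groups.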

How the data were processed

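Mouse accumbens RNA from 6 groups of 5 arrays was measured on Illumina bead arrays. The authors deposited log2 intensities of 46174 probes, not normalized and without detection p, per the file's values, and a value table equal to the log2 of their quantile-normalized form, used as an alternative. The scanner software and the authors' background step (not given in the sources used here) could not be stated. Background was modelled with normexp (limma) from 1552 olfactory, vomeronasal, trace amine and taste receptor probes (offset 16), in place of a correction from detection p, then quantile-normalized over 30 arrays and taken to log2. Kept were 22552 probes detected (p under 0.05 against those receptor probes) on 5 arrays or more, and each gene stood by its probe of highest mean level. Symbols came from the platform annotation, updated through RefSeq's GRCm38.p6 table; of 46174 probes 35725 had 1 symbol, 0 several and 10449 none.

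Tests were two-sided limma 3.58.1 fits in R 4.3.3 with Benjamini-Hochberg adjustment over 13226 genes, called under 0.05: within the 10 arrays of a preparation for dexamethasone, on 15 arrays of an agent for levels, and on 30 arrays for differences between preparations. The members, gene lists and tests were chosen with earlier results of these data known. The 4 kinases were all described; of each other list all members were counted and up to 4 by smallest p named, plus Nr3c1. Replicate numbers pair arrays through the chip, per the label descriptions; same-chip arrays of a preparation correlated, after removal of group means, at a mean r of 0.19 in astrocytes, 0.18 in neurons and 0.05 in tissue (lowest -0.13). Each group kept 1 chip position, and the 2 cannot be told apart. The fit was tested on simulated data drawn without correlation between arrays of the same chip, so that test does not cover the pairing by chip. The alternatives were median scaling, no background correction, no filter, the value table, the mean of probes, quantile normalization within a preparation, a fit to 30 arrays, an exact permutation test, the chip as a block and leaving out each array. The number of arrays limits the precision.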

Additional observations from a re-analysis of the deposited data

Results flagged for a closer look

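The fitted difference of dexamethasone minus saline for Pdk4 was lower in neurons than in tissue in the test of that contrast (-1.64 ± 0.22 on the log2 scale, adjusted p = 0.000746 in limma over 30 arrays), but no neuronal response was measured, since Pdk4 was at background there on 9 of 10 arrays. In tissue Pdk4 averaged 8.78 after dexamethasone and 7.59 after saline, and in neurons 5.86 after dexamethasone and 6.3 after saline, where it was detected on 0 of 5 arrays after dexamethasone and 1 of 5 after saline. Astrocyte markers in the neuron samples averaged 7.67 after dexamethasone and 8.73 after saline, and their part in the result was not tested. By Dixon's criterion at 95%, 0 of 24 sets of 5 values, 1 set for each kinase in each group, held an outlying value. The nearest was Pdk2 on replicate 2 of tissue after dexamethasone, undetected at 6.44. Its gap to the next array was 0.685 of the range of its group. A gap had to exceed 0.71 of the range to count, so lesser outliers were not excluded.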

How the results depend on the processing

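Of the member values under alternatives other than leaving out an array, 336 kept their direction and their side of the threshold and 4 reversed. Another 5 came to pass the threshold and 3 no longer did, and the cause was not tested. Many of these values could not reverse. Each kinase stood by its only detected probe, so the mean of probes and the lack of a filter left its differences unchanged. So did, by design, the fit to 30 arrays, the chip block and the permutation test. The authors' value table repeats the setting without background correction, so that setting was counted under both names. The 4 reversals were of values near 0: with median scaling the difference between the responses of astrocytes and neurons was 0.05 for Pdk1, and the mean response was -0.03 for Pdk2, and Pdk2 in tissue was 0.03 without background correction and 0.03 from the authors' value table. Median scaling took Pdk4 on the mean of the preparations (0.36) and neurons minus tissue (-1.42) out of the calls, and the replicate block took out Pdk1 in neurons minus tissue under saline (-0.69, adjusted p = 0.0547). Pdk4 in tissue, 1.20 in each case, passed in the fit to 30 arrays and on the mean of probes (adjusted p = 0.0484 in limma). The mean of probes left the values of Pdk4 as they were, so its adjusted p moved only through other genes. Pdk4 in tissue did not pass with the chip as a block, without background correction or with median scaling. The exact permutation test, unadjusted for the number of genes, gave a p under the threshold in tissue, where the lack of overlap fixed it, and in astrocytes (0.42). The neuronal value, also under the threshold (-0.44), lies at background and is no measured difference.

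On leaving out each array in turn, 921 member values kept their direction and side of the threshold, 25 reversed, 9 came to pass and 5 no longer did. The ranges of those that changed were, for Pdk4, 1.11 to 1.32 in tissue and 0.74 to 0.95 for the response of astrocytes minus neurons. For Pdk1 they were -0.28 to 0.05 and -0.08 to 0.38 for the response of astrocytes minus neurons and minus tissue, -0.36 to 0.08 for astrocytes minus tissue after dexamethasone, 0.26 to 0.56 for astrocytes minus neurons under saline and -0.81 to -0.56 for neurons minus tissue under saline. For Pdk2 they were -0.18 to 0.39 in tissue, -0.02 to 0.16 on the mean of preparations and -0.88 to -0.32 for neurons minus tissue after dexamethasone, and for Pdk3 -0.11 to 0.07 in tissue and -0.11 to 0.02 for neurons minus tissue after dexamethasone. Acot2 in astrocytes minus neurons under saline reversed to 0.20 on the mean of its probes.

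The chip as a block changed no other call of a member. Counts of called genes moved by over 1.5 times as follows: in astrocytes 233 became 369 in the fit to 30 arrays and 148 with median scaling; in neurons 0 became 52 and 11; in tissue 5 became 13 and 0, 8 without background correction and from the value table, and 2 with the chip as a block; on the mean of preparations 285 became 153 with median scaling. For the difference of responses, neurons minus tissue went to 0 with median scaling and 1 without the filter, against 7, and astrocytes minus tissue to 75 without background correction and from the value table, against 47; after dexamethasone, neurons minus tissue had 2069 calls with median scaling, against 3197. On leaving out an array the counts were 1 to 14 in tissue, 0 to 32 in neurons and 133 to 227 in astrocytes, and, for the differences of responses, 1 to 27 in neurons minus tissue, 20 to 58 in astrocytes minus tissue and 84 to 167 in astrocytes minus neurons. The 5 arrays per group, a stand-in background and neuronal Pdk4 below detection limit these values.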
